A study of Caenorhabditis elegans with 28 samples.

Results

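Mature microRNAs (miRNAs) of the ebax-1 mutant were compared between the first and the second 7 h of an hourly larval time course, libraries of 18 to 24 h being set against those of 25 to 31 h. These 14 libraries, 7 per cycle, were the mutant libraries among the 28 of the series, chosen by the strain and hour in the labels, and the other 14 were of the wild type N2. Both strains came from synchronised L1 larvae, plated at 2000 worms per 10 cm plate, kept at 25 °C and given no treatment. The mutant strain HW3527 carries the tm2321 allele of ebax-1, a gene on chromosome IV, and no other allele was named for either strain. Each library was paired with the one 7 h later (18 with 25 h, up to 24 with 31 h), which is the nominal length of a larval cycle. How well paired libraries correlated is given with the pattern within the cycle.

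In C. elegans, larval stages repeat with each molt, and some miRNAs are transcribed in bursts once per stage while others switch on at a given stage. A mature miRNA accumulates or vanishes over such a cycle according to its synthesis and its decay. EBAX-1 is the substrate receptor of a Cullin-RING ligase that promotes the decay of miRNAs, among which the mir-35 family, needed in the embryo, is the best-known substrate. Each hairpin precursor gives a 5p and a 3p arm, and here the guide is the arm with the higher mean over the 14 mutant libraries and the passenger is the other.

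Counted reads per mutant library ran from 6540394 to 13223782 in the first cycle and from 4970366 to 8926354 in the second. The libraries of 28, 29 and 31 h were the 3 shallowest, with 5055100, 4970366 and 6125674 counts. They also held the lowest levels of miR-62 and miR-58a-3p, followed in both by the 24 h library. For miR-58a-3p the 24 h library lay next to that of 31 h. miR-62, a mirtron arm, had normalised counts of 301, 647 and 754 there against 1235 to 3129.9 in the other 11, and miR-58a-3p, the most abundant arm over these libraries, had 557682, 609198 and 865494, where the other 11 ran from 865744 to 1297643. Results are therefore given with all 7 pairs and with the 4 pairs (18 with 25, 19 with 26, 20 with 27 and 23 with 30 h) that hold none of the 3. Hours are single libraries and no replicate cultures were named, so a p-value measures only the spread of the pair differences, which may be technical, and cycle cannot be told apart from larval age or harvest time. In whole animals, fewer cells of a type and less RNA per cell cannot be told apart. The genotype rests on the labels, no mRNA having been analysed here.

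The comparison of the cycles asked which miRNA arms changed in level from one larval cycle to the next without EBAX-1. Of the 437 arms in the table, 391 had a read in the mutant and 40 of these changed (10.2% of arms tested, limma adjusted p under 0.01), 18 upward (4.6%) and 22 downward (5.63%). The largest increases exceeded the largest decreases in size. Arms with a mean of at least 50 normalised counts in at least 1 cycle are termed abundant. Among these, the 10 largest called increases ran from 2.18 to 5.69 on the log2 scale, and the 10 largest called decreases from -0.70 to -1.16. Some risers, among them both arms of mir-5592 and of mir-786, met this minimum through the second cycle alone. They were rare in the first cycle, so the filter itself favours large rises among them. Of 229 guide arms 11 rose (4.8%) and 15 fell (6.55%), and of 162 passenger arms 7 rose (4.32%) and 7 fell (4.32%).

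The values of a called arm did not overlap between the cycles in 14 arms that rose and 7 that fell, where 3.58% and 2.81% of all tested arms did not overlap in these directions. All 18 arms that rose were higher in 7 of 7 pairs and all 22 that fell were lower in 7 of 7, and over all arms tested 6.65% and 11% moved one way in every pair. The median difference over the 391 arms was -0.05. With the trimmed mean scaling of edgeR in place of the library total, 37 arms were called with a split of 25 up and 12 down, and the size factors of DESeq2 gave 20 up and 15 down, so the balance of increases and decreases depends on the scaling. The count also depended on single pairs. It lay between 12 and 25 when any pair other than 21 with 28 h was left out (25 without 18 and 25 h, 13 without 19 and 26 h, 12 without 20 and 27 h, 15 without 22 and 29 h, 13 without 23 and 30 h, 18 without 24 and 31 h), and at 41 without 21 and 28 h. Called with all pairs and in each of these 7 fits were 10 arms, namely miR-85-3p, miR-240-3p, miR-786-3p, miR-786-5p, miR-237-5p and miR-1829b-3p among those that rose, and miR-1821-3p, miR-39-3p, miR-76-3p and miR-254-3p among those that fell.

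**Figure D1:**
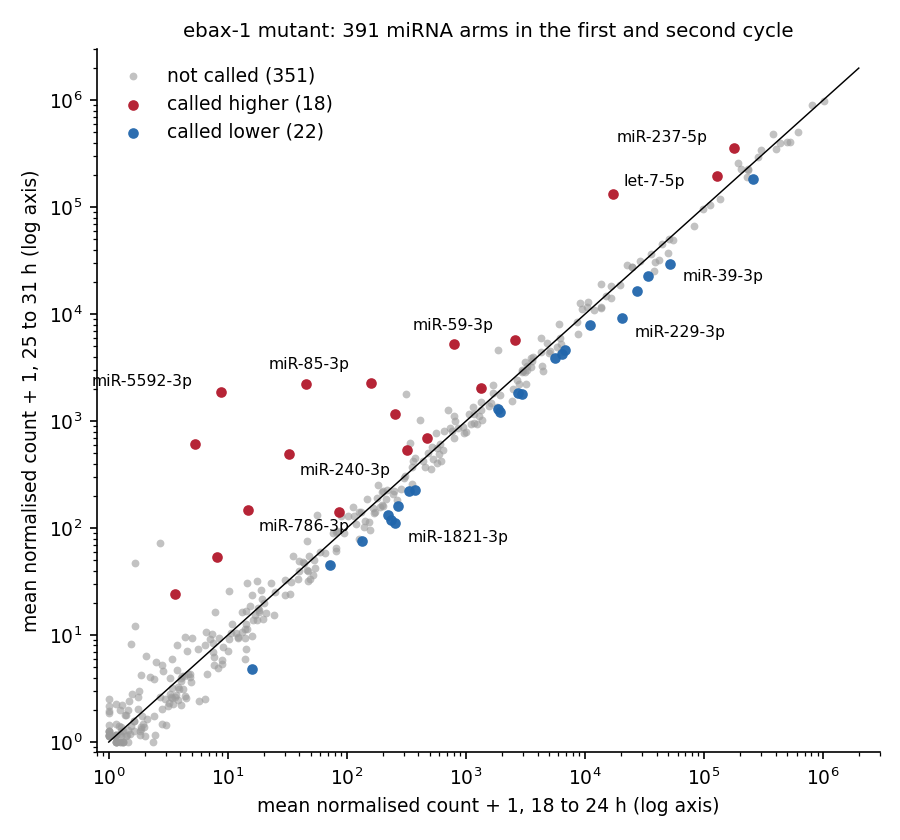
Mean normalised count plus 1 of each of 391 miRNA arms in the mutant libraries of 18 to 24 h (x axis, log) and of 25 to 31 h (y axis, log), with the line of equal levels. Red points mark the 18 arms called higher and blue points the 22 called lower. The largest rises lie among arms of low or moderate level in the first cycle, and let-7-5p and miR-237-5p are the most abundant arms that rose by more than 1 on the log2 scale.

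The 3 largest rises were those of miR-5592-3p, miR-85-3p and miR-5592-5p, arms with at most 104 normalised counts in any library of the first cycle. miR-5592-3p had normalised counts of 4.42 to 10.3 at 18 to 24 h (median 8.94) and 26.0 to 5102 at 25 to 31 h (median 1465). It was level until 24 h, then rose at each later hour, from 26.0 at 25 h and 198 at 26 h to 5102 at 31 h. The mean difference of the 7 pairs was 5.69 ± 0.80 (SE, limma adjusted p = 0.00295), on the log2 scale with the deposited pseudocount of 8, which compresses changes of rare arms. Its passenger miR-5592-5p rose by 4.42 ± 0.79 (adjusted p = 0.00663), with 1.94 to 7.08 at 18 to 24 h (median 4.43) and 7.43 to 1786 at 25 to 31 h (median 331). The annotation of WBcel235 places mir-5592 at 2 overlapping loci on opposite strands of chromosome X, 13759245 to 13759308 and 13759247 to 13759310, in an intron of aakb-1, and reads from the 2 loci are not separated in the table. The calls were held by 3 and 1 of the 7 fits that left out a pair, and with 4 pairs the differences were 4.40 and 3.23 (adjusted p = 0.0704 and 0.141).

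miR-85-3p, encoded on chromosome II from 8393553 to 8393658 of WBcel235 intronic to F49E12.8 but on its other strand, was at 13.9 to 104 at 18 to 24 h (median 30.7) and 207 to 6036 at 25 to 31 h (median 1059.7). The cycles did not overlap, and the level climbed from 104 at 24 h to 6036 at 31 h. Its difference was 4.98 ± 0.40 (adjusted p = 0.000162), held by all 7 fits that left out a pair, and 4.68 with 4 pairs (adjusted p = 0.0259). The guide of mir-357 lay flat at 18 to 24 h, between 144 and 185 normalised counts, and then spread from 193 to 5510.3 with a median of 1562. This gave a difference of 3.07 ± 0.60 for miR-357-3p (adjusted p = 0.00929), held by 1 of those 7 fits and lost with 4 pairs (2.20, adjusted p = 0.164). Its neighbour mir-358, whose guide miR-358-3p had at most 6.64 normalised counts in the first cycle and 1.24 to 184 in the second, missed the threshold (2.41 ± 0.49, adjusted p = 0.0101).

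Both arms of mir-240 and of mir-786 rose. The hairpins lie in a row on the plus strand of chromosome X, at 7882622 to 7882718 and 7882751 to 7882840 of WBcel235, in intergenic sequence, and miR-786 acts in the intestine in the timing of defecation. miR-240-3p had 7.67 to 80.7 at 18 to 24 h (median 17.4) and 183 to 865 at 25 to 31 h (median 484), without overlap. It rose by 3.80 ± 0.15 (adjusted p = 2.77e-06) and was 1 of the 2 arms still called with 4 pairs (3.89, adjusted p = 0.00382). The other was miR-786-3p, the guide of its hairpin, at 3.79 to 31.8 at 18 to 24 h (median 8.72) and 76.0 to 278 at 25 to 31 h (median 119.8), a rise of 2.86 ± 0.15 (adjusted p = 1.22e-05) that was 3.18 with 4 pairs (adjusted p = 0.00143). Their partner arms rose too, miR-786-5p by 2.18 ± 0.21 (adjusted p = 0.000565), although it had no read in 2 libraries of the first cycle, and miR-240-5p by 2.97 ± 0.49 (adjusted p = 0.00563). miR-240-5p had 7.42 to 919.5 at 18 to 24 h (median 137) and 644 to 2078 at 25 to 31 h (median 1017), and its cycles overlapped, the climb running through the first cycle from 7.42 at 18 h to 919.5 at 24 h. For miR-240-5p the call was held by 2 of the 7 fits that left out a pair.

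miR-59-3p, from an intergenic locus on chromosome IV from 11309154 to 11309253 of WBcel235, was close to constant in the first cycle (722 to 914 with a median of 786) and spread from 1305 to 11117 with a median of 2917 in the second. It rose by 2.30 ± 0.39 (adjusted p = 0.00569), with 7 of 7 pairs higher, a call held by 2 of those 7 fits and not with 4 pairs (1.99, adjusted p = 0.0976). Of the 6 late-rising hairpins that the study named (mir-85, mir-240, mir-357, mir-358, mir-359 and mir-786), 4 of 6 guides and 2 of 5 passengers rose, against 4.8% of all guides and 4.32% of all passengers, and none fell. The median difference was 2.91 for guides and 2.01 for passengers, against -0.07 and -0.02 over all tested guides and passengers. The list follows the study's own choice of rising miRNAs, so it is not independent evidence of its direction. Another 4 arms rose less. miR-77-3p went from a median of 2685 to 5377 normalised counts (1.14 ± 0.20, adjusted p = 0.00658). miR-1829b-3p and miR-1829c-3p, which may share reads because the counting allowed up to 100 hits per read, rose by 0.74 ± 0.08 and 0.67 ± 0.11, and miR-4936 by 0.56 ± 0.09.

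**Figure D2:**
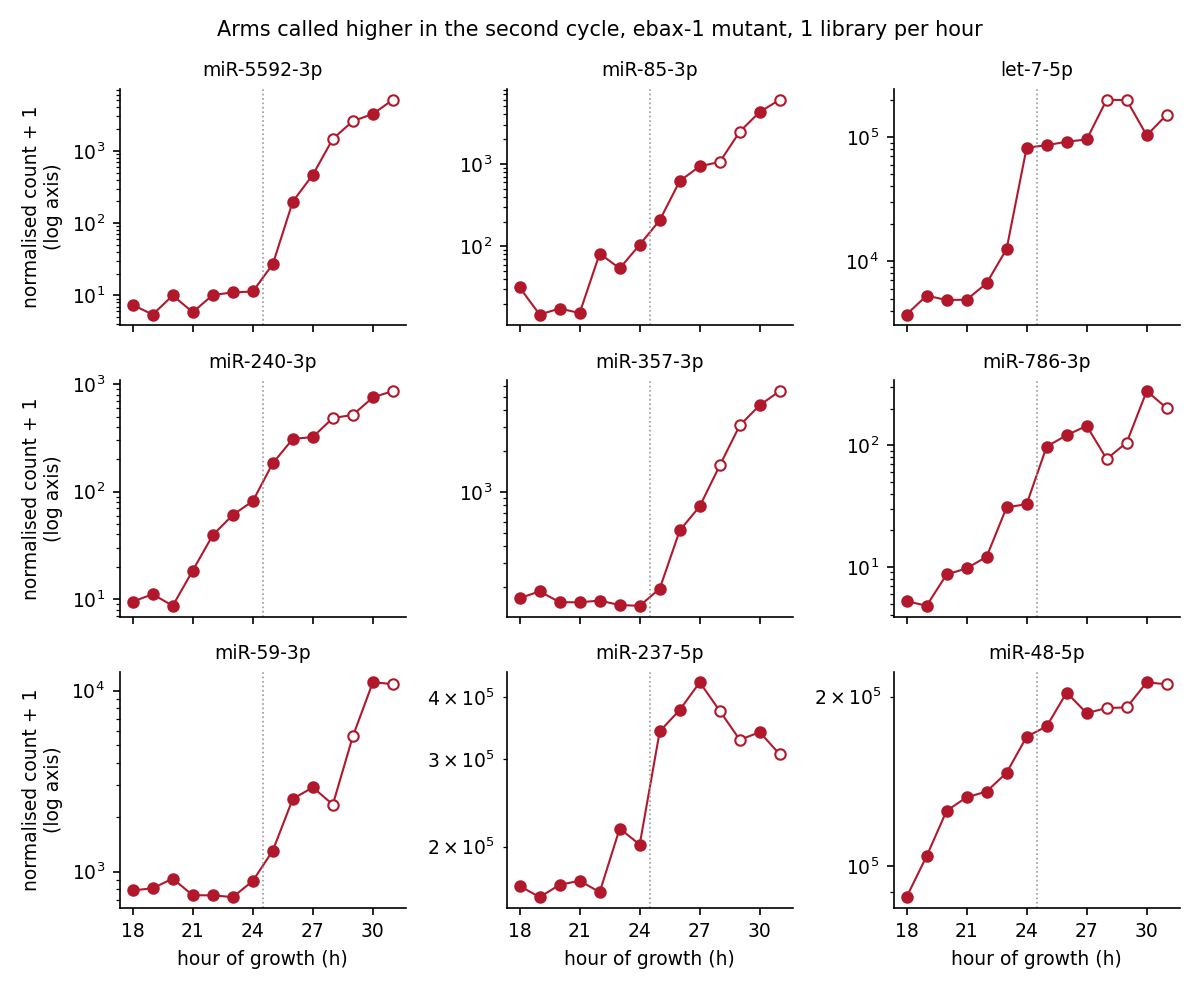
Normalised count plus 1 (log axis) of 9 arms called higher in the second cycle, by hour of growth, in the 14 mutant libraries (1 per hour, lines join the hours). Open circles are the libraries of 28, 29 and 31 h, and the dotted line separates the cycles. let-7-5p stepped up between 23 and 24 h, whereas miR-357-3p and miR-5592-3p were flat up to 24 h and then climbed.

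The heterochronic miRNAs set the order of larval stages, lin-4 acting early, miR-48, miR-84 and miR-241 around the middle, and let-7 at the end of larval life. let-7-5p had 3716 to 82146 at 18 to 24 h (median 5276) and 85919 to 199868 at 25 to 31 h (median 103242). The first-cycle values fell into 3716 to 12559 at 18 to 23 h and 82146 at 24 h, and no library of the second cycle was below 85919. The 24 h library thus lay near the later level, and the mean difference was 3.87 ± 0.49 (SE, limma adjusted p = 0.00183). The pair of 24 and 31 h differed by only 0.88, the other 6 pairs by 3.04 to 5.35. With 4 pairs it was 3.995 (adjusted p = 0.0111), and the call was lost without 20 and 27 h (adjusted p = 0.0139) and without 23 and 30 h (adjusted p = 0.0117). Its passenger, let-7-3p, peaked at 25 h with 2667 normalised counts, after 64.6 at 18 h, and was back at 136 at 29 h. Its difference of 2.29 ± 0.96 did not pass (adjusted p = 0.143).

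miR-48-5p, a sister of let-7, had 88003 to 169664 at 18 to 24 h (median 132405) and 177077 to 212020.4 at 25 to 31 h (median 191314) and rose without overlap, with a difference of 0.63 ± 0.10 (adjusted p = 0.00504), and its passenger miR-48-3p rose by 0.64 ± 0.12 (adjusted p = 0.00918). Those calls were held by 3 and 1 of the 7 fits that left out a pair. miR-237-5p, which shares the lin-4 seed and is encoded on chromosome X, was among the most abundant arms that changed, with 158225 to 217450.1 at 18 to 24 h (median 167509.8) and 306530 to 428371 at 25 to 31 h (median 341234). The gap between the cycles lay between 217450.1 at 23 h and 306530 at 31 h, and the difference was 1.01 ± 0.11 (adjusted p = 0.000653), called in all 7 fits that left out a pair and 1.07 with 4 pairs (adjusted p = 0.0243). lin-4-5p itself had 2674 to 3877 at 18 to 24 h (median 3627) and 2745 to 4966 at 25 to 31 h (median 3968), overlapping, with a difference of 0.15 ± 0.08 (adjusted p = 0.229). In all, 2 of 7 guides of the let-7 family rose and none fell, and among 6 passengers 1 rose (miR-48-3p) and 1 fell (miR-795-3p), where over all guides 4.8% rose and 6.55% fell and over all passengers 4.32% did each. miR-795-3p fell by 0.70 ± 0.10 (adjusted p = 0.00295). The 4 hairpins listed for the epidermis (mir-48, mir-84, mir-241 and let-7) all belong to this family, and 2 of their 4 guides rose, let-7-5p and miR-48-5p, against 4.8% of all guides.

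The mir-35 family is the one most tied to EBAX-1, and in the mutant its 3p guides were among the abundant arms. All 8 guide arms, among 137 of all 229 guides, had a negative mean difference, that of miR-41-5p turning positive with other scalings. For mir-41 the guide by abundance was the 5p arm, whereas the study modelled miR-41-3p as guide. The difference of miR-41-3p was 0.008. Of the 8, 3 fell, against 6.55% of all guides, and none rose. None of the 8 passengers passed, where 8.64% of all passengers did. The median guide difference was -0.47 against -0.07 over all guides. miR-39-3p declined from 69151 normalised counts at 18 h to 34056 at 24 h and 18722 at 31 h, with 34056 to 69151 at 18 to 24 h (median 50382) and 18722 to 39209.5 at 25 to 31 h (median 27463). It fell by 0.84 ± 0.09 (limma adjusted p = 0.000653), lower in 7 of 7 pairs, a call in each of the 7 fits that left out a pair. The value with 4 pairs was -0.70 (adjusted p = 0.0153). miR-36-3p had 20567 to 46704 at 18 to 24 h (median 32425) and 15440.1 to 30090.3 at 25 to 31 h (median 22615) and fell by 0.60 ± 0.11 (adjusted p = 0.00851), and miR-38-3p had 6374 to 14039 at 18 to 24 h (median 11558) and 5008 to 10401 at 25 to 31 h (median 8067) and fell by 0.52 ± 0.10 (adjusted p = 0.00981). Neither call survived the omission of any one pair, and in both arms the cycles overlapped.

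The other members did not pass. miR-40-3p, at 4664 to 8230.5 at 18 to 24 h (median 5931) and 2918 to 5426 at 25 to 31 h (median 4833), had a difference of -0.50 ± 0.10 (adjusted p = 0.0104), lower in 7 of 7 pairs. The abundant miR-35-3p and miR-37-3p had -0.43 ± 0.13 and -0.36 ± 0.11 (adjusted p = 0.0562 and 0.0562), each lower in 6 of 7 pairs. The pair of 21 and 28 h was the exception in both, and the 28 h library held 55010.2 counts of miR-35-3p where 27 and 30 h held 40019 and 26557. With the 4 pairs that leave out 28, 29 and 31 h, miR-35-3p and miR-37-3p were at -0.68 and -0.54, lower in 4 of 4 pairs. miR-36-3p, miR-38-3p and miR-39-3p behaved the opposite way in the shallow libraries, with miR-39-3p at 23927 at 28 h, below its 37067 and 27463 at 27 and 30 h. miR-42-3p, encoded apart from the others on chromosome II at 11889811 to 11889905, had a difference of -0.11 ± 0.11, and miR-41-5p -0.04 ± 0.20, a sign that turned to 0.05 with the trimmed mean scaling. Under the trimmed mean scaling the differences of miR-39-3p, miR-36-3p and miR-38-3p stayed negative and called (-0.75, -0.51 and -0.43).

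**Figure D3:**
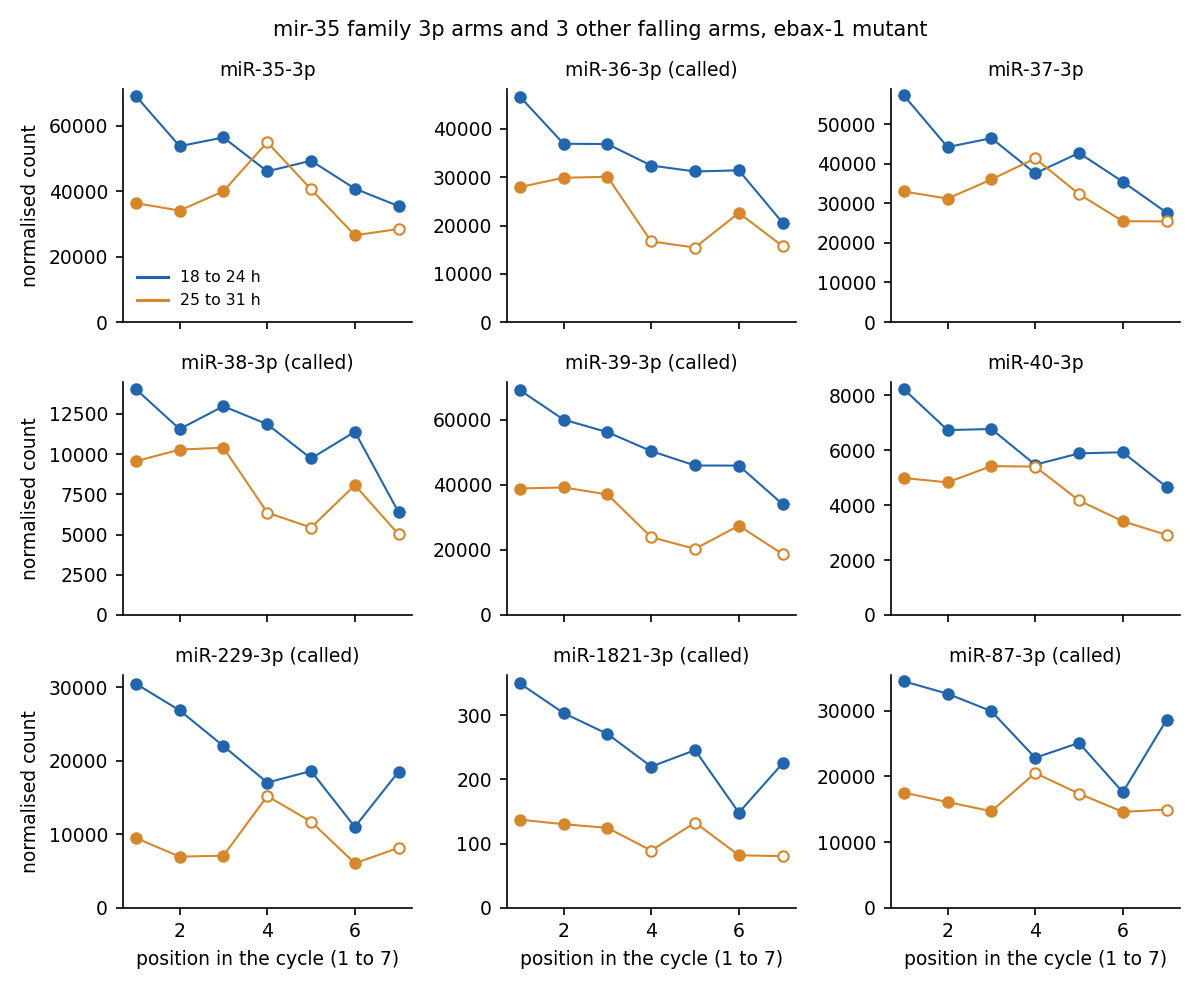
Normalised count (linear axes from 0) against the position in the cycle, 1 being 18 or 25 h and 7 being 24 or 31 h, for the 6 abundant 3p guides of the mir-35 family and 3 other arms with lower levels in the second cycle. Blue is the first and orange the second cycle, 1 library per point, with open circles at 28, 29 and 31 h. In miR-36-3p, miR-38-3p and miR-39-3p every second-cycle point is below its first-cycle partner, while miR-35-3p and miR-37-3p cross at the fourth position.

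Outside this family the largest decrease was in miR-229-3p, the passenger of a hairpin of the mir-63/64 family. It had 11003 to 30482 at 18 to 24 h (median 18606) and 6061 to 15206 at 25 to 31 h (median 8167), which overlapped, and fell by 1.16 ± 0.21 (limma adjusted p = 0.00750), lower in 7 of 7 pairs. Its pair difference ran from -1.95 to -0.16, being smallest for 21 and 28 h, and the call was held by 1 of 7 fits. miR-1821-3p, from an intergenic locus on chromosome V from 3042530 to 3042633, did not overlap between cycles. It had 148 to 349.6 at 18 to 24 h (median 246) and 80.5 to 137 at 25 to 31 h (median 125) and fell by 1.12 ± 0.09 (adjusted p = 0.000162), a call in all 7 fits, and -1.09 with 4 pairs (adjusted p = 0.0153). miR-796 fell by 0.96 ± 0.16 (adjusted p = 0.00530), with 123 to 278 at 18 to 24 h (median 255) and 76.0 to 179.9 at 25 to 31 h (median 127). The cycles overlapped through the 23 h library, the lowest of the first cycle.

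miR-76-3p, at 209 to 349.6 at 18 to 24 h (median 253) and 121 to 199 at 25 to 31 h (median 159.7), did not overlap and fell by 0.70 ± 0.09 (adjusted p = 0.00220), a call in all 7 fits that left out a pair. miR-87-3p, more abundant, had 17604 to 34495 at 18 to 24 h (median 28621) and 14608 to 20523 at 25 to 31 h (median 16098) and fell by 0.70 ± 0.13 (adjusted p = 0.00861), called in 1 of those fits. miR-2-5p, the passenger of mir-2, fell by 0.79 ± 0.14 (adjusted p = 0.00630), a call lost whichever pair was left out (adjusted p 0.0114 to 0.0266). It had 2089 to 3836 at 18 to 24 h (median 2990.4) and 1068 to 2566 at 25 to 31 h (median 1637). The remaining arms that fell had differences of -0.69 to -0.49, except for the rare miR-5546-3p (-0.95 ± 0.14). They include miR-254-3p (-0.60 ± 0.07, not overlapping), miR-233-3p (-0.55 ± 0.08, not overlapping) and miR-90-3p, the most abundant, with 182916 to 324490 at 18 to 24 h (median 264796) and 170052 to 212072 at 25 to 31 h (median 175514) and a decrease of 0.49 ± 0.09 (adjusted p = 0.00749).

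**Figure D4:**
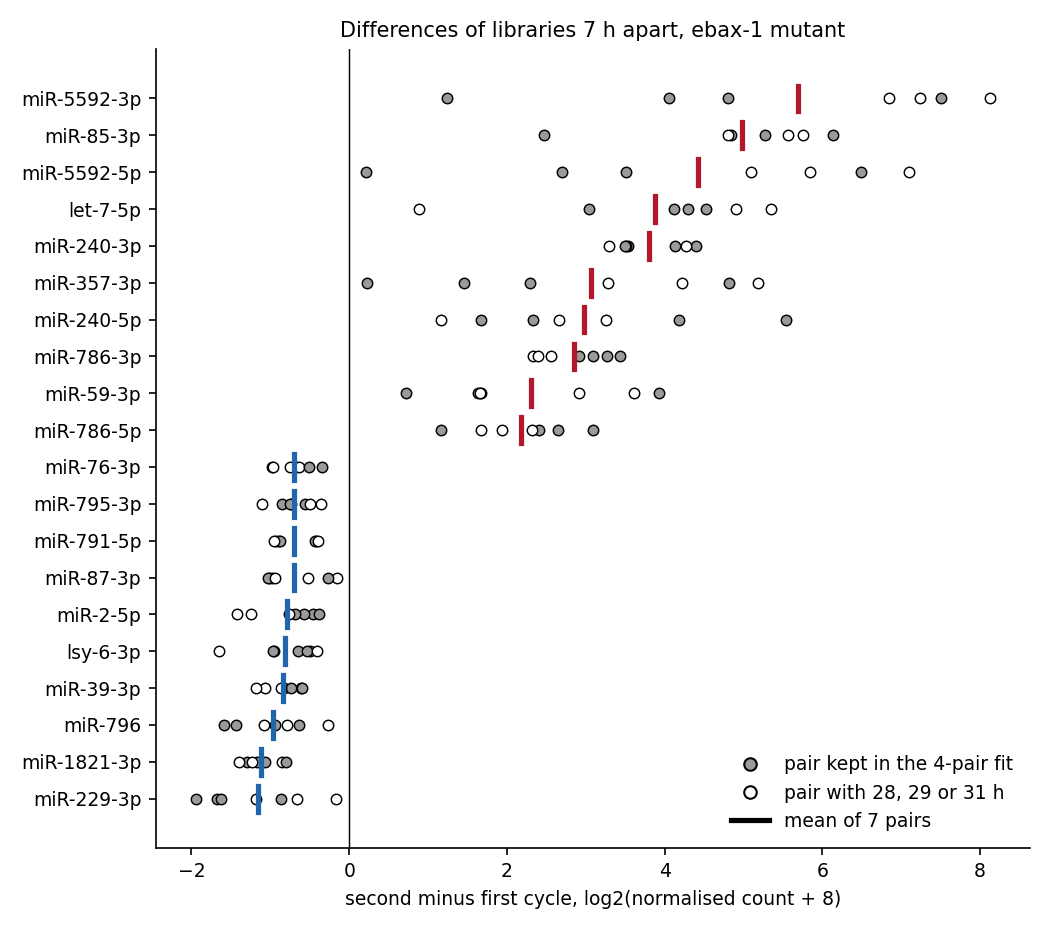
Difference of each library and the one 7 h earlier, on the log2(normalised count + 8) scale, for the 10 named arms that rose and the 10 that fell. Each point is 1 of 7 pairs, filled for the 4 pairs kept and open for the 3 that hold 28, 29 or 31 h, and the bar is the mean of the 7. For miR-5592-3p, miR-5592-5p and miR-357-3p the pair differences span several units, whereas those of miR-240-3p stay between 3.30 and 4.40.

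Markers of single tissues were compared for the whole list. For neurons, lsy-6-3p, which sets the left-right asymmetry of a pair of taste neurons, fell by 0.81 ± 0.15 (adjusted p = 0.00750), with 102 to 170.0 at 18 to 24 h (median 132) and 39.7 to 106 at 25 to 31 h (median 76.4). The passenger miR-791-5p, of a miRNA of gas-sensing neurons, fell by 0.70 ± 0.10 (adjusted p = 0.00325). The study modelled miR-791-5p as the guide, and its arms were close in level here. The ratio of miR-791-3p to miR-791-5p was 1.10 in the first and 1.57 in the second cycle. So 1 of 3 guides and 1 of 3 passengers on the neuronal list fell, against 6.55% of all guides and 4.32% of all passengers, and with so few arms nothing is read from the shares. The lsy-6-3p call was held by 1 of 7 fits and the miR-791-5p call by 5. For glia, the guide of mir-228 did not pass and its passenger miR-228-3p fell by 0.61 ± 0.11 (adjusted p = 0.00617). The muscle guide miR-1-3p had 456719.6 to 585479.5 at 18 to 24 h (median 512448) and 347938 to 481480.4 at 25 to 31 h (median 372707), a difference of -0.39 ± 0.08 that missed the threshold (adjusted p = 0.0104) although it was negative in 7 of 7 pairs. Neither arm of the intestinal mir-60 passed, with -0.14 ± 0.26 for miR-60-3p. The share of any tissue in the larvae, and its part in these differences, was not tested.

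The miRNAs that the study linked to EBAX-1 besides the mir-35 family had 0 of 4 guides and 0 of 4 passengers called by limma. Over all arms 11.4% of guides and 8.64% of passengers were called, so counts of 0 in 4 are near the background and no result about these miRNAs. Over all 391 arms, 123 had an unadjusted limma p under 0.05. miR-235-3p, related to the miR-92 miRNAs of vertebrates, had 138581 to 240712 at 18 to 24 h (median 219463) and 188605 to 318434 at 25 to 31 h (median 283007) and was higher in 7 of 7 pairs (0.43 ± 0.10, limma adjusted p = 0.0160). It was called by the quasi-likelihood test of edgeR (adjusted p = 0.00469), by DESeq2 (adjusted p = 0.00197) and by limma with the trimmed mean scaling (adjusted p = 0.00942) or pairs 8 h apart (adjusted p = 0.00811). Other limma fits did not call it, among them those with 4 pairs (adjusted p = 0.120), pairs 6 h apart (0.168), no pairing (0.0761) and DESeq2 size factors (0.0182). None of the 7 fits that left out a pair called it. miR-71-5p, which supports longevity and stress resistance, had 388861 to 513832 at 18 to 24 h (median 426162) and 254235 to 576176 at 25 to 31 h (median 402751) and a difference of -0.19 ± 0.12 (adjusted p = 0.330). Its libraries of 25 to 27 h were its lowest, at 254235 to 324345, and that of 29 h its highest. miR-788-3p and miR-247-3p differed by -0.24 ± 0.20 and 0.35 ± 0.31 (adjusted p = 0.475 and 0.510). The study modelled the other arm, miR-788-5p, as the guide of mir-788. Here it was the passenger and had a difference of 0.46, without a call. miR-788-3p had 5014 at 18 h, 1113 at 23 h, 3729 at 24 h, 3551 at 25 h and 1089 at 30 h. The mir-58, mir-51, mir-44 and mir-72 families and the mirtrons had no called arm, and miR-58a-3p, at -0.10 ± 0.16 with 7 pairs, was at 0.20 with 4, the sign turning with the shallow libraries.

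The 4 pairs without the 3 shallow libraries left 3 residual degrees of freedom, in place of 6, and 2 arms passed (0.512% of 391), both upward. None passed downward. In these pairs 119 arms had an unadjusted limma p under 0.05. The quasi-likelihood test of edgeR called 22 (14 up and 8 down), where it called 44 with 7 pairs. All 40 arms called with 7 pairs had the same sign in each of the 4 pairs, which follows from their having that sign in all 7. Their median absolute difference was 0.74 in place of 0.76, in arms chosen on these same values, so neither figure adds support for the calls. With a spread shared with the wild-type pairs, 40 arms were called with 4 pairs (18 up, 22 down), of which 25 were among the 40 of the main fit. The same shared spread called 58 with 7 pairs (26 up, 32 down). Over all arms, 70 were higher and 73 lower in 4 of 4 pairs.

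Since the 2 arms of a hairpin come from 1 transcript, the guide to passenger ratio was also compared. Of 93 hairpins with both arms at a mean of at least 10 normalised counts, limma called 1 (1.08%), mir-5592, at 1.27 ± 0.14 (SE, adjusted p = 0.000377) on the scale of log2(normalised count + 8). No change of the ratio is read from this call. miR-5592-5p had at most 7.08 normalised counts in the first cycle, so it met the minimum through the second cycle alone, and the pseudocount pulls its first-cycle ratio towards 1. The mean counts themselves, without a pseudocount, had ratios of 1.78 in the first and 3.06 in the second cycle, a smaller change, and with a pseudocount of 1 the hairpin was not called. The largest decrease, of mir-253 (-1.03 ± 0.30, limma adjusted p = 0.0442), did not pass.

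Whether an arm rises and falls over the 7 positions alike in both cycles was tested by an F test of the pair terms. None of the 391 arms passed at an adjusted p under 0.01, the smallest adjusted p being 0.0508, and 58 (14.8%) had an unadjusted limma p under 0.05. Only limma was run for this test. Of the 10 arms with the smallest p, 8 were passengers, which make up 41.4% of the arms tested, and none of the 10 passed. miR-237-3p had 1829.6, 299.5 and 3332 normalised counts at 18, 21 and 24 h and 2221, 512 and 2026 at 25, 28 and 31 h. miR-44-5p and miR-45-5p, of neighbouring hairpins with near-identical guides, were at their lowest at 20 and 27 h (1615 and 1861 for miR-44-5p) and 19 and 26 h (3234 and 2443 for miR-45-5p). lin-4-3p dropped from 236 at 18 h to 26.3 at 22 h and was at 239 at 25 h and 53.8 at 29 h, while miR-71-3p had its low values at 18 and 25 h. The other members of these 10 were miR-240-3p, miR-786-3p, miR-39-3p, miR-235-5p and miR-40-5p. Across the 208 abundant arms, deviations from the cycle mean correlated between paired libraries with r from -0.18 for 21 and 28 h to 0.46 for 22 and 29 h, as a description in which arms share libraries and depth. The libraries of 20 and 21 h correlated best with those of 28 and 30 h, not with their partners. The 28 h library is among the shallow ones. Whether the position in the cycle or the state of a library lay behind these correlations was not tested.

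The wild type at equal clock hours was used for 1 question, whether the change from cycle to cycle differed between strains. In wild type 26 arms rose (6.4% of 406) and 50 fell (12.3%), in the fit of all 28 libraries with a spread shared by the strains. These counts are not comparable with those of the mutant fitted alone. With a spread shared with wild type, 26 arms rose and 32 fell in the mutant (of 391). The interaction of strain and cycle was called in none of the 406 arms by limma at an adjusted p under 0.01, with 58 (14.3%) at an unadjusted p under 0.05 and 13 (3.2%) at an adjusted p under 0.05. The quasi-likelihood test of edgeR called 4, all more negative in the mutant, namely miR-39-3p, miR-38-3p, miR-36-3p and miR-246-3p. Among the 10 smallest p, 6 were 3p arms of the family (miR-35 through miR-40). For miR-39-3p the difference in the mutant was -0.84 ± 0.12 and in wild type 0.07 ± 0.12, an interaction of -0.92 ± 0.17 (SE, limma adjusted p = 0.0295), and for miR-38-3p the values were -0.52 ± 0.15, 0.55 ± 0.15 and -1.06 ± 0.21 (adjusted p = 0.0295). miR-36-3p, miR-40-3p, miR-35-3p and miR-37-3p had interactions of -1.004 ± 0.22, -0.56 ± 0.12, -0.78 ± 0.19 and -0.76 ± 0.19.

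Both arms of mir-246 had a smaller difference in the mutant, called by edgeR for the 3p arm alone. miR-246-3p had first and second-cycle means of 313 and 1802 there, without a call (1.90 ± 0.42, adjusted p = 0.0145), and 258 and 8116 in wild type, an interaction of -2.73 ± 0.58 (adjusted p = 0.0316). miR-246-5p was called in the mutant at 1.502 ± 0.26, with an interaction of -1.85 ± 0.38 (adjusted p = 0.0316). In the other direction miR-253-5p (1.05 ± 0.24, adjusted p = 0.0437) and miR-48-3p (0.78 ± 0.19, adjusted p = 0.0498) had the more positive difference in the mutant, with no call of the interaction. The study described the mutant as delayed in development. With hours matched for a delay of 3 h, only 4 pairs per strain remained (mutant 21 to 24 h with 28 to 31 h), and 3 of the mutant pairs held a shallow library. That smaller design gave 0 calls in limma, with 58 at an unadjusted p under 0.05, from which nothing is read about stability, and at equal clock hours strain cannot be told apart from developmental timing.

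**Figure D5:**
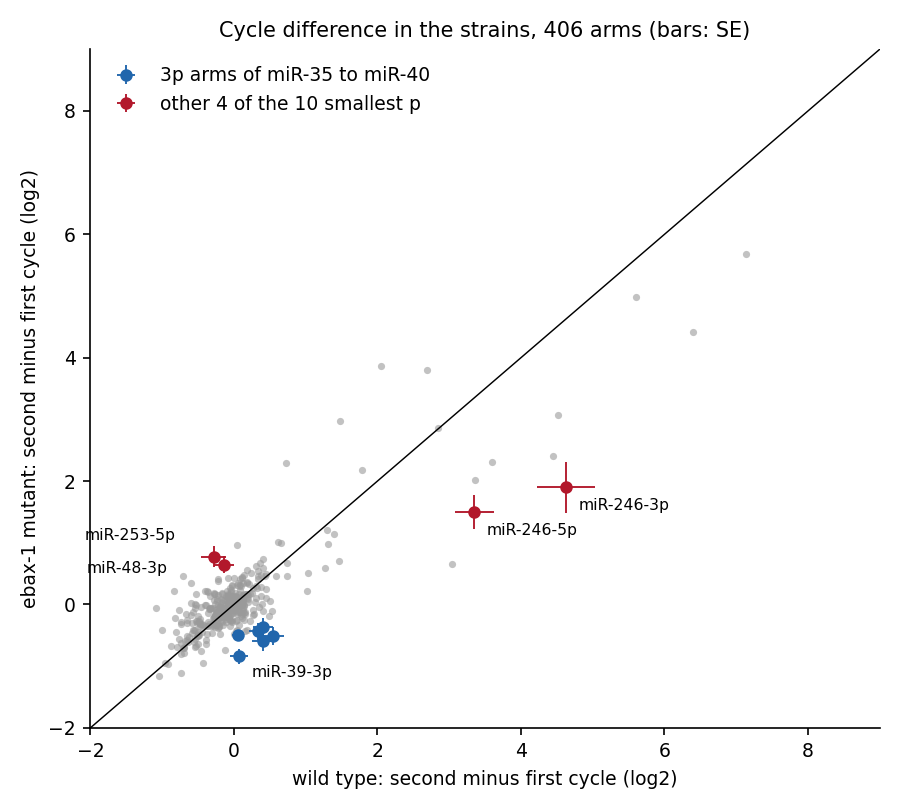
Second minus first cycle in wild type (x axis) and in the ebax-1 mutant (y axis) for 406 arms, as log2 differences over 7 pairs of hours, with the line of equal change. Blue points are miR-35-3p through miR-40-3p, and red points the other 4 of the 10 arms with the smallest interaction p, with bars of 1 SE. The blue points are below the line, with negative mutant values and wild-type values above 0.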

How the data were processed

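Small RNA was sequenced by the authors as single-end reads from whole larvae. According to the study's methods and the submitters' notes, adapters were trimmed, reads were aligned with Bowtie to ce10, allowing up to 100 hits, and sense reads were counted for an arm of miRBase release 22 if they began at most 3 bp from its annotated 5′ end. No tool versions are given in the sources used here. The deposited counts are whole numbers for 437 arms and were not pooled. The deposited log2 values are, per the authors, these counts scaled to the mean library total, plus a pseudocount of 8. Recomputation gave them within 0.0005. Normalised counts are the same without the pseudocount and log2. As shares of a library, they fall for all arms when abundant arms rise. An arm without a read may hold up to 3 counts, 1.90 to 5.04 normalised counts in the mutant, which covers counting error only. No libraries were identical.

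limma 3.58.1 in R 4.3.3 fitted cycle and the pair of hours to the log2 values of the 14 mutant libraries (6 residual degrees of freedom), over the 391 arms with a read and not the 46 without. Calls needed a two-sided Benjamini-Hochberg adjusted p under 0.01, the study's threshold. The strain by cycle interaction used 28 libraries (406 arms, 12 residual degrees of freedom). Calculations were tested on simulated data. The members, the lists and the naming rule were chosen with earlier results of these data known. Named were the 10 largest called differences each way (mean of at least 50, 1 sign in at least 6 of 7 pairs), the guides of miR-35 to miR-42, miR-235, miR-71, miR-247, miR-788, let-7, lin-4, miR-58a and miR-1, called list members, the 5 largest called ratio changes each way, and the 10 smallest p of the pattern and interaction tests. Further arms (such as miR-358-3p, let-7-3p, miR-62, miR-60-3p, miR-77-3p, the miR-1829 arms, miR-4936, miR-254-3p, miR-233-3p, miR-90-3p, miR-5546-3p and mir-253) were chosen after their values were seen. Alternatives were pairs 6 and 8 h apart, no pairing, edgeR 4.0.16 and DESeq2 1.42.0 tests and scalings, pseudocounts of 1 and 32, mean filters of 10 and 50, moderation with trend, a spread shared with wild type, a threshold of 0.05, each pair left out, and the 4 pairs; 3 more, chosen after seeing the data, were the unpaired test without 28, 29 and 31 h, and edgeR or a shared spread in the 4 pairs. Loci come from the Ensembl annotation of WBcel235.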

Additional observations from a re-analysis of the deposited data

Results flagged for a closer look

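In 78 groups of 7 libraries, 3 passed the 95% critical value of Dixon's test, each through 1 mutant library. Chance is expected to put about 1 in 20 groups past it, so 3 of 78 is no more than that share. The test also takes no account of the order of the hours in development. let-7-5p at 24 h had a log2 normalised count of 16.326, where the other 6 libraries of the first cycle had 11.863 to 13.617. miR-796 at 23 h had 7.032, below 7.829 to 8.161 in the others. miR-48-3p at 28 h had 11.327, above 10.864 to 11.053 in the others of the second cycle. Whether anything set these 3 values apart was not tested.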

How the results depend on the processing

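In place of 40, the number of arms called between cycles was 7 with pairs 6 h apart, 20 with a pseudocount of 1, 74 at an adjusted p under 0.05 (36 up, 38 down), 2 without 28, 29 and 31 h and their partners, 15 without only those libraries and without pairing, and 12 to 41 when each pair was left out in turn. With 4 pairs it was 22 by edgeR and 40 with a spread shared with wild type, where 7 pairs gave 44 and 58. Without the replicate block it was again 40 (19 up, 21 down), 35 of them shared. The remaining settings gave 35 (DESeq2 size factors) to 59 (DESeq2 Wald test), the edgeR test giving 44 (30 up, 14 down) where the library total gave 18 up and 22 down. All 40 arms kept their sign under every alternative in which they were tested. For the fits that only left out pairs this was fixed in advance by their single sign in all pairs. In place of 1 hairpin, the ratio test called 0 with a pseudocount of 1, 2 without the replicate block and 0 with 4 pairs. The interaction test called 2 with TMM factors and 4 by edgeR, in place of 0, and 0 without the replicate block. Signs that turned, all in arms without a call, were those of miR-41-5p (0.12 with pairs 6 h apart, 0.049 with TMM factors, 0.040 with DESeq2 size factors and with edgeR (0.0397), 0.030 with DESeq2's test, -0.22 to 0.088 over the pairs left out), miR-58a-3p (0.20 with 4 pairs, -0.16 to 0.041 over the pairs left out) and miR-788-3p (0.0065 with pairs 6 h apart). The cause was not tested, beyond the fewer residual degrees of freedom of fits with fewer pairs. In libraries of 4970366 to 13223782 counts, arms near 8 normalised counts are limited by depth.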

Other observations

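The hour of the steepest hourly rise was read off for each arm in the 14 mutant libraries, as a description without a test. Of the 18 arms that rose between cycles, 6 had it from 24 to 25 h (miR-240-3p, miR-786-3p, miR-237-5p, miR-48-3p, miR-1829b-3p and miR-1829c-3p) and 4 from 25 to 26 h (both arms of miR-5592, miR-357-3p and miR-246-5p). let-7-5p had it from 23 to 24 h, and miR-59-3p and miR-4936 from 28 to 29 h. These 18 arms were called from the same libraries as higher from 25 h on, which favours a steepest rise near that hour. Nothing about timing is therefore read from their counts beside those of other arms. Among the 208 abundant arms, 28 (13.5%) rose most steeply into 25 h, 4 (1.92%) into 26 h and 54 (26.0%) into 30 h, the hour after the shallow libraries of 28 and 29 h. The part of those libraries in the share at 30 h was not tested.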
